A study of Saccharomyces cerevisiae with 5 samples.

Results

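Poly(A) RNA of a budding yeast strain that lacks INO80, the gene of the motor subunit of the INO80 chromatin remodelling complex, was compared with RNA of WT, by label the strain it was made from. Both libraries came from asynchronous liquid cultures of Saccharomyces cerevisiae in mid-log phase at 30°C in rich medium. By its label the ino80d strain is BY4741 with the LEU2 marker gene in place of INO80, and WT is BY4741 itself, a MATa strain with his3, leu2, met15 and ura3 alleles, so that by label ino80d carries those alleles as well. Deletions of the subunit genes ARP8, ARP5 and IES6 (arp8d, arp5d and ies6d), by label made in BY4741 with the same marker, are used for reference. The table holds 1 FPKM value (fragments per kilobase of feature, scaled to the mapped fragments) per strain and feature, which by the label stands for 2 biological replicates. There is therefore no replicate error, no test and no p-value, and differences are described by size alone. Of 6567 features, 6192 had a mean of at least 5 FPKM over the 5 strains and were kept. The measure is the log2 ratio, that is log2(FPKM + 1) of ino80d minus log2(FPKM + 1) of WT, and a fold change is on this scale, which understates differences of low genes. Each strain is a single construct, and nothing in the labels says how many clones were grown.

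INO80 uses ATP to slide nucleosomes and to exchange histone variants next to promoters. In yeast it was first described through the inositol synthesis gene INO1, and it acts with sequence-specific activators at genes of phosphate uptake and of other nutrient pathways. Cells in rich glucose medium normally devote much of their messenger RNA to ribosomal proteins and glycolysis, and keep stress and respiratory genes low. The transcription factors Msn2 and Msn4 turn on general stress genes through the stress response element, Pho4 turns on phosphate genes, Gcn4 turns on amino acid synthesis genes, and Leu3 responds to an intermediate of leucine synthesis.

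The label of the deletion held in the RNA. INO80 (YGL150C, chromosome VII, 221104 to 225573, R64 assembly) had 0.0257 FPKM in ino80d, against 35.5 in arp8d, 34.1 in arp5d, 31.7 in ies6d and 25.7 in WT. Mating type a also held: the receptor gene STE2 had 1077 FPKM in ino80d and 954 FPKM in WT, and the protease gene BAR1 had 198 FPKM in each. Of 7 MATa-specific genes 2 were higher by 1.5-fold or more in ino80d and 0 lower. The 5 genes specific to α cells had a lower median, 34.5 FPKM in ino80d and 27.9 FPKM in WT. Of these, 3 were higher by 1.5-fold or more in ino80d and 1 was lower. The strains differed at other loci too. MET17, the gene altered in met15 strains, had 807 FPKM in ino80d, 564 in arp8d, 0.200 in arp5d, 0.571 in ies6d and 0.482 in WT, which goes against the met15 allele that the labels imply for the libraries labelled ino80d and arp8d. LYS2 of lysine synthesis had 0.0138 FPKM in ino80d, 32.3 in arp8d, 0.0390 in arp5d, 25.01 in ies6d and 36.9 in WT, although no label lists it as mutated. At these loci ino80d, arp8d and arp5d differed from WT beyond the labelled deletions, and in the ratios of ino80d to WT below the deletion and these other differences cannot be told apart. The same limit holds where ino80d is set against the other mutants. None of them had both MET17 expressed and LYS2 near 0, as ino80d did. LEU2 had 91.3 FPKM in ino80d and 0.0619 FPKM in WT. The FPKM values summed to 3.03e+06 in ino80d and 3.38e+06 in WT, and MFA1, the short gene of a mating pheromone, held 19.8% of that sum in ino80d and 6.01% in WT. Library depth is unknown, so no counting interval is given.

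Among kept features, 422 (6.82%) were higher by 2-fold or more in ino80d and 272 (4.39%) at least 2-fold lower. Higher features made up 60.8% of those past 2-fold. The share was 71.4% when each strain was scaled to the same FPKM sum (456 higher and 183 lower). That scaling moved the median log2 ratio of all kept features by 0.14. With a filter of 20 FPKM the share was 54.9% (291 higher and 239 lower), and at 1.5-fold it was 53.3%. The filter mean includes the mutants, so genes low in WT can enter through them. No excess of higher features is read from these shares. Without the 100 kept rows of chromosome I whose identifiers start with YAL or YAR, 397 of 6092 features (6.52%) were higher and 272 (4.46%) lower. At 1.5-fold, the threshold used for gene lists, 15.1% of kept features were higher and 13.2% lower. The features nearest the 5 FPKM limit were GAS4, outside it with 4.51 FPKM in ino80d and 3.27 FPKM in WT, and GIP1, inside it with 5.21 FPKM in ino80d and 3.80 FPKM in WT.

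Features outside the longer annotated genes varied far more than those genes. The 5383 annotated genes with at least 300 coding bases, called long ORFs here, had an SD of the log2 ratio over genes of 0.68. The other 809 kept features had 1.69. They include short genes and noncoding RNAs, but 483 of them matched no entry of the annotation, so their length and type are not known here. Of the long ORFs, 287 (5.33%) were higher by 2-fold or more and 213 (3.96%) at least 2-fold lower in ino80d, with a median log2 ratio of -0.02. The spread over genes between ino80d and each other mutant was smaller, with SDs of 0.33 against arp8d, 0.28 against arp5d and 0.35 against ies6d. Single extremes came from these other features. The small nucleolar RNA snR69 was listed at 3056 FPKM in ino80d and at 0 in WT, and snR64 was listed at 0 in ino80d and at 3420 FPKM in WT. Long ORFs are therefore used below wherever genes are counted by position or promoter.

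General stress genes were higher almost throughout. Of 34 kept members of a list of 35 stress genes of the Msn2 and Msn4 type, 29 were higher by 1.5-fold or more in ino80d, 0 were lower and 25 were higher by 2-fold or more, with a median log2 ratio of 1.53. The member outside the filter, PHM7, had 4.80 FPKM in ino80d and 1.02 FPKM in WT. HSP12, which encodes a small protein that protects membranes, had 2584 FPKM in ino80d, 3040 in arp8d, 1638 in arp5d, 3477 in ies6d and 93.1 in WT. DDR2, a stress gene of unknown function, had 1004 FPKM in ino80d, 1168 in arp8d, 1039 in arp5d, 1908 in ies6d and 99.1 in WT. All 4 mutants stood above WT for both genes. CTT1, the cytosolic catalase, had 46.6 FPKM in ino80d and 9.12 FPKM in WT. SOL4, of the pentose phosphate pathway, had 31.7 FPKM in ino80d, 64.6 in arp8d, 60.5 in arp5d, 90.9 in ies6d and 3.94 in WT, so ino80d was the lowest mutant. The regulator genes differed from each other: MSN4 had 114 FPKM in ino80d and 30.9 FPKM in WT, while MSN2 had 49.8 FPKM in ino80d and 48.1 FPKM in WT. The members that stayed within 1.5-fold were GRE3, UBI4, SOD2, MSN2 and GIS1.

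The stress response element, the letters CCCCT read on either strand, was counted in a window from 250 bases before to 50 bases after each start codon. HSP12 and TSL1, a subunit gene of trehalose synthase, are shown because they hold 2 and 3 matches. The stretches run from base -250 to base -101 before the start codon, at chrVI:107006-107155 (plus strand) for HSP12 and chrXIII:70374-70523 (plus strand) for TSL1 of the RefSeq R64 genome, in the direction of the gene. Capitals mark CCCCT or its reverse complement, AGGGG.

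HSP12: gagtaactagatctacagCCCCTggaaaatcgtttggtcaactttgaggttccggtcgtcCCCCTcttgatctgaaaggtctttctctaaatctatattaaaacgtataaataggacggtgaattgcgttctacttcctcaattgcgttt

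TSL1: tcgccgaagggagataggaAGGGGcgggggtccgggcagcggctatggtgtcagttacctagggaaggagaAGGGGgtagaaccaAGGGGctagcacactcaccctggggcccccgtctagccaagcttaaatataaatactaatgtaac

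TSL1 had 37.9 FPKM in ino80d, 59.6 in arp8d, 65.3 in arp5d, 93.8 in ies6d and 9.56 in WT. The motif stood in 38.3% of the 287 long ORFs at least 2-fold higher in ino80d, 16.9% of the 213 at least 2-fold lower and 21.5% of all 5383. By number of matches, 4.19% of the 4223 long ORFs with 0 matches were higher by 2-fold or more, 7.85% of 1007 with 1, 19.4% of 129 with 2 and 26.1% of 23 with 3. The median log2 ratio in the same order was -0.04, 0.06, 0.24 and 0.51. No long ORF with 2 or 3 matches was 2-fold lower. In the stress list 16 of 27 long ORFs held the motif (59.3%), and in the respiratory list 16 of 35 (45.7%). The stress list was chosen as genes of the Msn2 and Msn4 type, which read this motif, so its share is no independent support. Lists that were not higher held it too: 7 of 8 COS genes held it (87.5%), with a median log2 ratio of -2.02, and 10 of 20 oxidative stress genes, with a median of -0.12. Outside chromosome I, where 5.05% of long ORFs were higher and 4.02% lower at 2-fold, the share was 39.6% of the 268 higher long ORFs and 21.5% of all. The motif is 5 letters long and a match is no proof of binding.

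**Figure D1:**
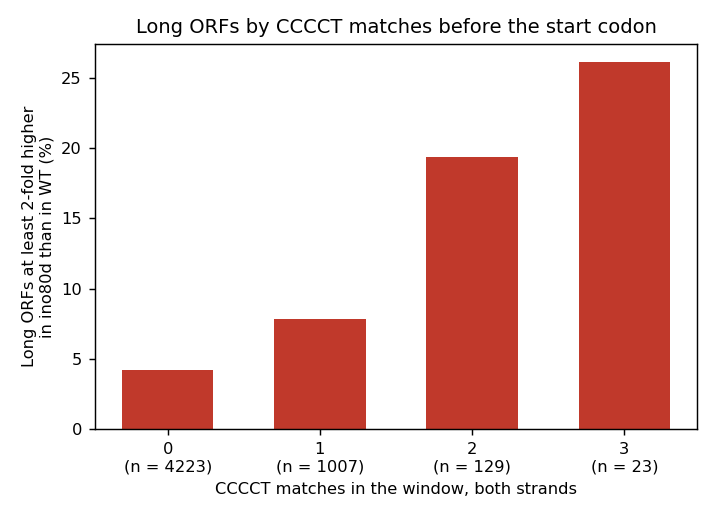
Share of long ORFs at least 2-fold higher in ino80d than in WT (y axis, percent) by the number of CCCCT matches on both strands from 250 bases before to 50 after the start codon (x axis, with the number of long ORFs). The share is 4.19% with 0 matches and 26.1% with 3.

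Apart from the LEU2 and MET17 loci, the 5 long ORFs with the highest ratios were HSP30, HSP12, YRO2, TDA6 and TPO2, and of these only HSP12 held CCCCT in the window. HSP30, a stress-induced membrane protein that restrains the plasma membrane proton pump, had 1009 FPKM in ino80d, 989 in arp8d, 1582 in arp5d, 2117 in ies6d and 29.8 in WT. Its relative YRO2 had 710 FPKM in ino80d, 545 in arp8d, 669 in arp5d, 905 in ies6d and 28.9 in WT. MRH1, the remaining gene of this small family, had 2286 FPKM in ino80d and 2255 FPKM in WT. The list of genes of Haa1, the regulator of the weak-acid response, had 10 of 11 members at least 1.5-fold higher and 0 lower, with a median log2 ratio of 2.23, and 0 of its 11 long ORFs held CCCCT. It shares SPI1, YGP1 and GRE1 with the stress list. TDA6 had 200.2 FPKM in ino80d, 137 in arp8d, 217 in arp5d, 245 in ies6d and 9.23 in WT. The polyamine exporter gene TPO2 had 359 FPKM in ino80d, 189 in arp8d, 365 in arp5d, 330 in ies6d and 17.5 in WT, but it has the near-identical copy TPO3, and reads shared by the copies make both values uncertain. HAA1 itself was the member below 1.5-fold, with 82.0 FPKM in ino80d and 57.5 FPKM in WT.

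Genes of the storage carbohydrate trehalose also stood higher, and so did some glycogen genes. Of 7 trehalose genes, 6 were higher by 1.5-fold or more and 0 lower, with a median log2 ratio of 0.87. The synthase subunit gene TPS2 had 74.9 FPKM in ino80d, 151 in arp8d, 127 in arp5d, 211 in ies6d and 34.6 in WT, and the trehalase gene NTH1 had 95.4 FPKM in ino80d and 43.5 FPKM in WT. Synthesis and breakdown genes were thus higher side by side, and TPS2 was lowest in ino80d among the mutants. Of 10 glycogen genes, 5 were higher by 1.5-fold or more and 0 lower, with a median log2 ratio of 0.79. The median was 0.56, under 1.5-fold, when the filter used the mean of ino80d and WT alone. SGA1 (7.87 FPKM in ino80d and 1.95 FPKM in WT) and GPH1 (34.2 FPKM in ino80d and 4.997 FPKM in WT) are among the 5. Both passed the 5 FPKM filter only through the mutants, so no excess of higher glycogen genes is read from this count. GPH1, the glycogen phosphorylase, had a log2 ratio of 2.55, and GSY2, the main glycogen synthase, had 91.7 FPKM in ino80d and 22.5 FPKM in WT.

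Respiratory genes were higher as a group. Of 45 genes of the mitochondrial respiratory chain and its Hap regulators, 30 were higher by 1.5-fold or more in ino80d and 0 lower, with a median log2 ratio of 0.80. All 4 genes of complex II were among them, against 7 of 9 for complex III, 7 of 9 for complex IV and 6 of 13 for ATP synthase. The 3 NADH dehydrogenase genes were among them as well. Of these, NDE2, with 9.53 FPKM in ino80d and 3.60 FPKM in WT, passed the 5 FPKM filter only through the mutants. No count is read from those 3 genes. SDH2, the iron-sulfur subunit of complex II, had 183 FPKM in ino80d, 123 in arp8d, 148 in arp5d, 183 in ies6d and 76.1 in WT. CYC7, the minor cytochrome c, had 84.0 FPKM in ino80d, 103 in arp8d, 83.9 in arp5d, 189 in ies6d and 5.85 in WT, whereas the major form CYC1 had 335 FPKM in ino80d and 263 FPKM in WT. HAP4, the activating subunit of the Hap complex, had 170 FPKM in ino80d, 276 in arp8d, 221 in arp5d, 280 in ies6d and 41.1 in WT. The Hap binding letters CCAAT stood in 43.2% of the 2-fold higher long ORFs, 39.4% of the 2-fold lower and 44.1% of all. In the citric acid cycle 4 of 13 genes were higher by 1.5-fold or more and 1 lower, led by the citrate synthase gene CIT1 with 165 FPKM in ino80d and 65.1 FPKM in WT.

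Glycolysis split between high and low enzymes. Of 17 genes, 10 were lower by 1.5-fold or more in ino80d and 3 at least 1.5-fold higher, with a median log2 ratio of -0.76. HXK2, the hexokinase of glucose-grown cells, had 745 FPKM in ino80d, 808 in arp8d, 1020 in arp5d, 955 in ies6d and 1788 in WT. HXK1, the hexokinase that glucose represses, had 206 FPKM in ino80d, 281 in arp8d, 310 in arp5d, 503 in ies6d and 29.5 in WT. GLK1, the glucokinase gene, had 194 FPKM in ino80d and 93.0 FPKM in WT, so HXK1 and GLK1 moved opposite to HXK2. CDC19, the major pyruvate kinase, was the third higher gene, with 2120 FPKM in ino80d, 2347 in arp8d, 1760 in arp5d, 1969 in ies6d and 1024 in WT. CDC19 lies on chromosome I, whose genes were higher as a whole in ino80d. It was above WT in every mutant, however, and highest in arp8d, where the chromosome I median log2 ratio to WT was 0.11. The part of the chromosome in the CDC19 value was not tested. Phosphofructokinase (PFK1) had 236 FPKM in ino80d and 499 FPKM in WT. TDH2 and ENO2 were lower as well but have near-identical copies. Downstream, ADH1, the main fermentative alcohol dehydrogenase, had 7560 FPKM in ino80d and 14565 FPKM in WT, while ADH2, which uses ethanol, had 84.3 FPKM in ino80d and 28.8 FPKM in WT. Of 16 fermentation and acetate genes, 7 were higher by 1.5-fold or more and 6 lower.

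Cytosolic ribosomal protein genes were lower almost throughout. Of 56 small-subunit genes 44 were lower by 1.5-fold or more and 0 higher (median log2 ratio -0.73), and of 79 large-subunit genes 57 were lower and 0 higher (median -0.75). Together they held 12.4% (small) and 11.6% (large) of the FPKM sum in ino80d, against 18.1% and 16.9% in WT. The small-subunit median was -0.57, just under 1.5-fold, when strains were scaled to the same FPKM sum. Against WT the same medians were -0.57 and -0.55 in arp8d, -0.49 and -0.47 in arp5d and -0.34 and -0.29 in ies6d, comparisons that share the WT value. Set directly against the mutants, 51 of 56 small-subunit and 74 of 79 large-subunit genes lay below all 3, where 28.1% of all long ORFs did. That share covers long ORFs of every level. The lists include shorter genes and had median levels of 4467 FPKM (small) and 3727 FPKM (large) in ino80d, and no share at like level was taken. Near-identical copies affect 40 of the small-subunit and 54 of the large-subunit genes, among them RPS8A and RPL8A. RPL22B, without such a copy, had 435 FPKM in ino80d, 469 in arp8d, 438 in arp5d, 411 in ies6d and 1181 in WT.

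Other parts of the translation machinery differed from the ribosomal proteins. Of 61 ribosome biogenesis genes 0 were higher by 1.5-fold or more and 1 was lower (median log2 ratio -0.14), and of 67 mitochondrial ribosomal protein genes 2 were higher and 2 lower (median 0.03). The biogenesis gene below 1.5-fold was RRP1, with 165 FPKM in ino80d and 258 FPKM in WT. Ribosomal protein genes annotated with 2 or more coding parts (89) had a median of -0.76 and those with 1 (46) -0.68. The 147 other long ORFs with 2 or more coding parts had -0.21. Coding parts were counted from the annotation, and whether an intron separates them was not checked.

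**Figure D2:**
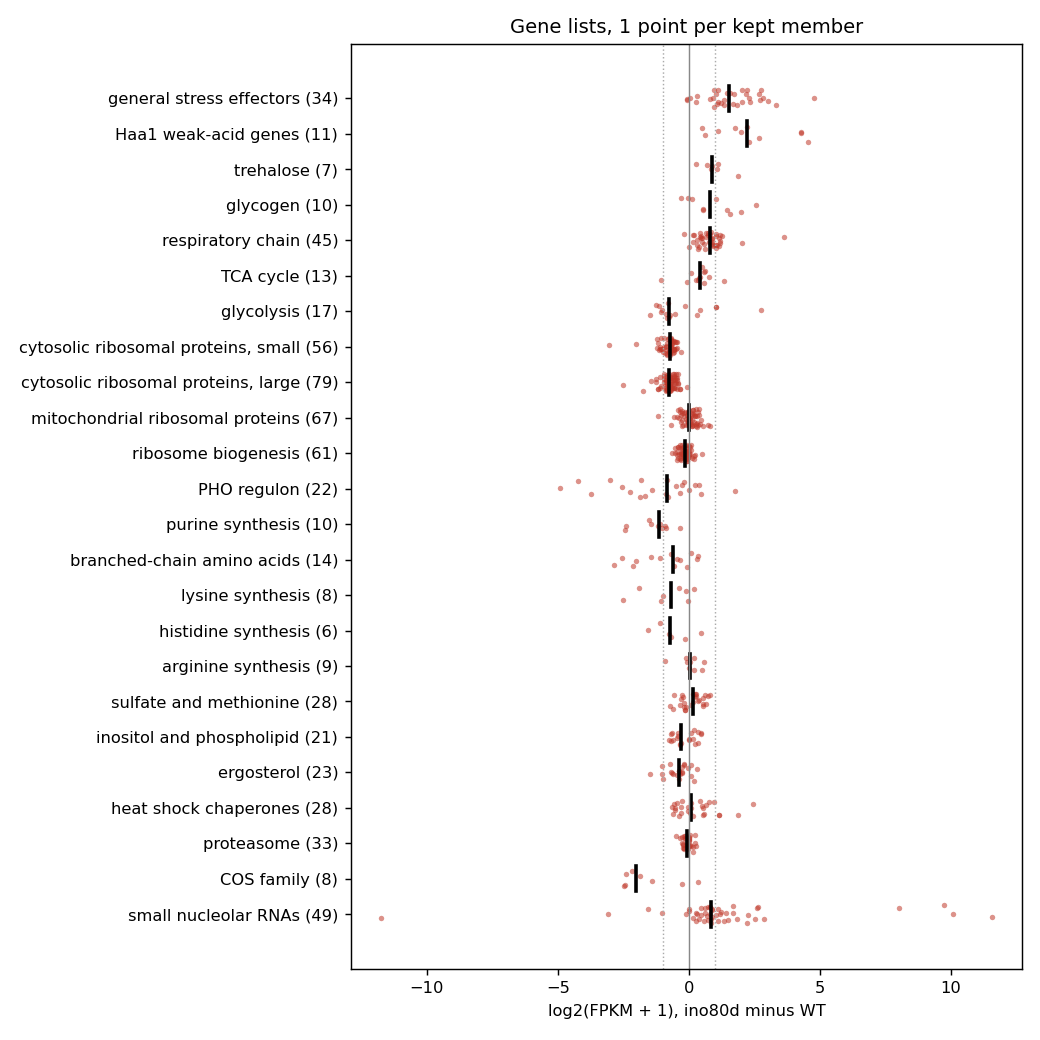
Log2 ratio of ino80d to WT (x axis) for each kept member of 24 gene lists (y axis, number of members in brackets). Points are genes, black bars are list medians and dotted lines mark 2-fold. Stress and respiratory lists lie to the right of 0 (medians 1.53 and 0.80), ribosomal protein, phosphate and purine lists to the left (medians -0.73 to -1.14).

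Genes of phosphate uptake and storage held some of the lowest values of the comparison. Of 22 kept members of a list of 23, 13 were lower by 1.5-fold or more in ino80d and 1 higher, with a median log2 ratio of -0.84. PHO84, the high-affinity phosphate transporter, had 46.4 FPKM in ino80d, 130 in arp8d, 70.9 in arp5d, 48.3 in ies6d and 897 in WT. PHO5, the secreted acid phosphatase, had 30.2 FPKM in ino80d, 32.3 in arp8d, 30.8 in arp5d, 29.4 in ies6d and 147 in WT. All 5 genes listed under polyphosphate were lower, such as VTC3 with 36.7 FPKM in ino80d and 219 FPKM in WT. The low-affinity transporter genes stayed within 1.5-fold: PHO87 had 36.2 FPKM in ino80d and 51.1 FPKM in WT, and PHO90 had 55.8 FPKM in ino80d and 70.8 FPKM in WT. Of the regulators, the activator gene PHO4 had 53.6 FPKM in ino80d and 92.9 FPKM in WT, while its cyclin-dependent repressor pair, PHO80 and PHO85, stayed within 1.5-fold. PHM8, a nucleotide phosphatase gene that is also in the Haa1 list, was the higher member, with 105 FPKM in ino80d and 30.4 FPKM in WT.

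SPL2, a small regulator of low-affinity phosphate transport, and VTC4, the polyphosphate polymerase, are shown because they hold 3 and 2 copies of CACGTG, the core recognised by Pho4. Bases -250 to -101 lie at chrVIII:375201-375350 (minus strand) for SPL2, where 1 of its 3 matches falls, and at chrX:413500-413649 (minus strand) for VTC4. Capitals mark CACGTG, which reads the same on both strands.

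SPL2: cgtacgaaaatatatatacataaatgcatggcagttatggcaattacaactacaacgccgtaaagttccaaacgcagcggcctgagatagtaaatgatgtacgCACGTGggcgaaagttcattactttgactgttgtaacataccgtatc

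VTC4: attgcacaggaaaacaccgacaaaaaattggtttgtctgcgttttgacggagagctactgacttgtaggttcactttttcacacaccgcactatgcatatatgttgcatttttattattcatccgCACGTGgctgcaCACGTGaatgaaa

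SPL2 had 10.1 FPKM in ino80d, 9.23 in arp8d, 11.2 in arp5d, 10.1 in ies6d and 147 in WT. VTC4 had 75.3 FPKM in ino80d, 106 in arp8d, 93.9 in arp5d, 74.8 in ies6d and 273 in WT. The letters stood in 4.69% of the 2-fold lower long ORFs, 1.39% of the 2-fold higher and 2.94% of all, and in 6 of 22 phosphate genes. Of 10 long ORFs with at least 2 copies, SPL2 and VTC4 were the ones at least 2-fold lower, and LSM4, STH1 and RRT14, with 2 copies each, had log2 ratios between -0.02 and 0.02. MET10 (0.75), YCL042W (0.72) and IES5 (0.39) lay above 0, and CAP1 (-0.55) and NUP1 (-0.11) below. Factors other than Pho4 read the same core.

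Purine synthesis was lower at nearly every step. Of 10 genes 9 were lower by 1.5-fold or more and 0 higher, with a median log2 ratio of -1.14. ADE17, which catalyses the last steps to IMP, had 176 FPKM in ino80d, 160 in arp8d, 198 in arp5d, 164 in ies6d and 939 in WT. Its paralog ADE16 was the gene within 1.5-fold, with 204 FPKM in ino80d and 256 FPKM in WT. ADE13, adenylosuccinate lyase, had 244 FPKM in ino80d and 1342 FPKM in WT. ADE4, the first enzyme of the pathway, had 91.9 FPKM in ino80d and 189 FPKM in WT. IMD2, an IMP dehydrogenase of GTP synthesis, had 7.77 FPKM in ino80d, 39.9 in arp8d, 2.94 in arp5d, 19.02 in ies6d and 148 in WT, whereas its relative IMD3 had 410 FPKM in ino80d and 507 FPKM in WT. Of 8 genes of one-carbon and glycine cleavage metabolism, which feeds purine synthesis, 4 were lower by 1.5-fold or more and 1 higher. SHM2, cytosolic serine hydroxymethyltransferase, had 469 FPKM in ino80d and 1292 FPKM in WT.

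Leucine, isoleucine and valine synthesis had 7 of 14 listed genes at least 1.5-fold lower and 0 higher (the marker LEU2, higher in ino80d, is not in the list), with a median log2 ratio of -0.61, which was -0.57 after scaling to the upper quartile and -0.45 at equal FPKM sums. LEU1, isopropylmalate isomerase, had 64.8 FPKM in ino80d, 67.8 in arp8d, 72.0 in arp5d, 70.3 in ies6d and 472 in WT. BAT1, the mitochondrial aminotransferase, had 287 FPKM in ino80d, 307 in arp8d, 335 in arp5d, 299 in ies6d and 1254 in WT. The mutants lay close together for both genes and apart from WT. OAC1, a carrier that exports a leucine precursor from mitochondria, had 64.5 FPKM in ino80d and 385 FPKM in WT. LEU4, the first committed enzyme, had 210 FPKM in ino80d and 221 FPKM in WT, and the regulator LEU3 had 50.9 FPKM in ino80d and 40.5 FPKM in WT. The LEU2 gene of the same pathway is expressed in the 4 mutants and not in WT (values above), and its part in these differences was not tested.

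LEU1 and BAT1 are shown because each holds a Leu3 site (CCGG, 2 bases of any kind and CCGG again, the same on both strands), a motif present in 8 of 5383 long ORFs. Bases -250 to -101 lie at chrVII:478753-478902 (minus strand) for LEU1 and chrVIII:517282-517431 (plus strand) for BAT1, with the site in capitals.

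LEU1: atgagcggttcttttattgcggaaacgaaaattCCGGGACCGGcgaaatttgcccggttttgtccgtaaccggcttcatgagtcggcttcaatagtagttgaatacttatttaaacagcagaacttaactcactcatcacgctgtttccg

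BAT1: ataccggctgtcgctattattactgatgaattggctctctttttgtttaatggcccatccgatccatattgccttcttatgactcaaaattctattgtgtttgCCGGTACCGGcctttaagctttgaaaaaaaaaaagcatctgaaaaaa

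These were the genes with the site that were lower by 2-fold or more. LEU2, the marker, also holds it. GAT1, FSF1 and DRE2 had log2 ratios of -0.87, -0.66 and -0.57, BRO1 had -0.27, and NPA3 had 0.38.

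Lysine and histidine lists had low medians, and the arginine list had a median of 0.06. Over all kept features 15.1% were higher and 13.2% lower by 1.5-fold or more. The arginine, aromatic, and sulfate and methionine counts below lie near or under these shares. Of 8 listed lysine genes, which leave out LYS2, 4 were lower by 1.5-fold or more and 0 higher (median log2 ratio -0.67, or -0.49 at equal FPKM sums). LYS9, saccharopine dehydrogenase, had 36.8 FPKM in ino80d, 125 in arp8d, 40.1 in arp5d, 70.3 in ies6d and 216 in WT, while LYS5, which activates the Lys2 enzyme, had 54.3 FPKM in ino80d and 47.0 FPKM in WT. LYS9 was lowest in ino80d and arp5d, the strains in which LYS2 had 0.0138 and 0.0390 FPKM, and the part of LYS2 in this was not tested. Of 6 histidine genes 4 were lower by 1.5-fold or more and 0 higher (median -0.71, or -0.55 at equal FPKM sums). Of 9 arginine genes 1 was lower, CPA1 with 107 FPKM in ino80d and 201 FPKM in WT, and 0 were higher. Aromatic amino acid genes had 2 of 14 lower and 0 higher, and serine, threonine and glutamate genes 8 of 20 lower and 1 higher, among them GDH1, glutamate dehydrogenase, with 233 FPKM in ino80d and 503 FPKM in WT. Of 28 listed sulfate and methionine genes, which leave out MET17 (log2 ratio 9.09), 4 were higher and 2 lower (median 0.17). GCN4 itself had 1814 FPKM in ino80d and 1890 FPKM in WT.

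HIS4 of histidine synthesis and GCV3, the H protein of the glycine cleavage complex, are shown because both carry 2 copies of TGACTC, the Gcn4 core, and moved in opposite directions. Bases -250 to -101 lie at chrIII:68434-68583 (minus strand) for HIS4 and chrI:58563-58712 (minus strand) for GCV3, where 1 of its 2 matches falls. Capitals mark TGACTC or its reverse complement.

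HIS4: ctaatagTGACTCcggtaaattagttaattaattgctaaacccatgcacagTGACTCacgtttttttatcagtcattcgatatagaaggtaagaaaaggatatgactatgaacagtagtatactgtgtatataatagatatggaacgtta

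GCV3: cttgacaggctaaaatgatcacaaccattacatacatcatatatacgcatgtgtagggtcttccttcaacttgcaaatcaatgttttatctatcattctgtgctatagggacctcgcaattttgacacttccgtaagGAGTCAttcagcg

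HIS4 had 72.5 FPKM in ino80d, 76.8 in arp8d, 79.7 in arp5d, 83.0 in ies6d and 213 in WT. GCV3 had 662 FPKM in ino80d, 631 in arp8d, 486 in arp5d, 662 in ies6d and 91.5 in WT. GCV1, of the same complex, was lower, with 70.2 FPKM in ino80d and 162 FPKM in WT. TGACTC stood in 15.5% of the 2-fold lower long ORFs, 8.71% of the 2-fold higher and 8.34% of all. Of 30 long ORFs with at least 2 copies, 4 were lower by 2-fold or more (HIS4, ADE2, ADE5,7 and ADE8) and 4 at least 2-fold higher (GCV3, CDC15, RTC2 and SNG1), of which GCV3 and CDC15 lie on chromosome I.

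INO1, the inositol synthesis gene, was near the detection filter in rich medium. It had 8.68 FPKM in ino80d, 6.88 in arp8d, 8.54 in arp5d, 7.80 in ies6d and 6.61 in WT, a log2 ratio of 0.35 for ino80d. Bases -250 to -101, at chrX:136034-136183 (minus strand), are shown with the Ino2 and Ino4 element CATGTGAA, or its reverse complement, in capitals.

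INO1: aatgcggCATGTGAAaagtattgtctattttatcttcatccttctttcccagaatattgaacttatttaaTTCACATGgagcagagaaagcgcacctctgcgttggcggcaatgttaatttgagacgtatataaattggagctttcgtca

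INO1 was the long ORF with 2 copies of this element, and 0.76% of all long ORFs held at least 1. Of 21 inositol and phospholipid genes 5 were lower by 1.5-fold or more and 0 higher, with a median log2 ratio of -0.28. PIS1, phosphatidylinositol synthase, had 525 FPKM in ino80d and 813 FPKM in WT, and CHO2, a methyltransferase of phosphatidylcholine synthesis, had 54.1 FPKM in ino80d and 86.5 FPKM in WT.

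**Figure D3:**
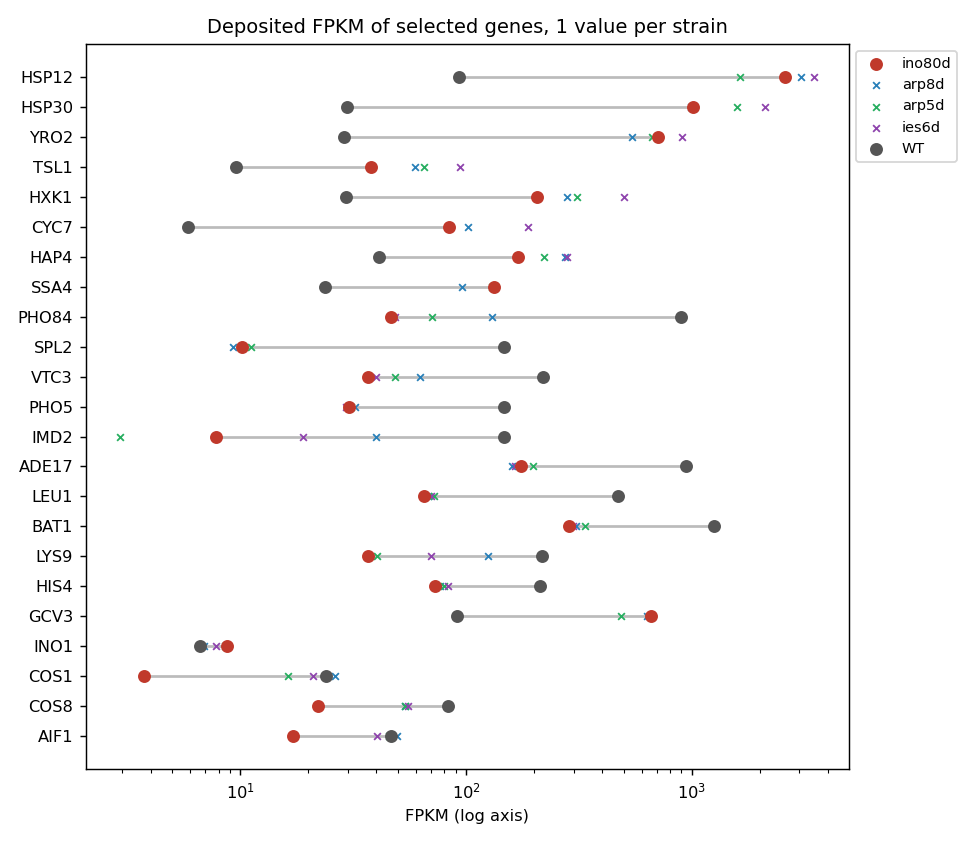
Deposited FPKM (x axis, log scale) of 23 named genes (y axis), with ino80d as large red points, WT as large grey points joined to them, and arp8d, arp5d and ies6d as crosses. HSP12 lies at 2584 FPKM in ino80d and 93.1 FPKM in WT, and the crosses for SPL2 (9.23 to 11.2 FPKM) sit on the ino80d point at 10.1 FPKM.

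Protein folding and growth genes were mixed. Over all kept features 15.1% were higher and 13.2% lower by 1.5-fold or more, and counts near these shares are not read as results. Among the lower counts below, cell cycle genes had 21.1% and histone genes 18.2%. Of 28 heat shock chaperone genes 8 were higher by 1.5-fold or more and 2 lower (median log2 ratio 0.08). The higher ones included stress-induced forms: SSA4, an inducible Hsp70, had 134 FPKM in ino80d and 23.7 FPKM in WT, and the disaggregase gene HSP104 had 242 FPKM in ino80d and 64.9 FPKM in WT. The constitutive SSB1 and the Hsp90 cofactor CPR6 were the lower ones. Of 33 proteasome genes 0 were past 1.5-fold in either direction. The cyclin gene CLN1 had 35.8 FPKM in ino80d, 42.1 in arp8d, 43.9 in arp5d, 41.3 in ies6d and 117 in WT, and 4 of 19 cell cycle genes were lower and 0 higher. Of 13 genes of ribonucleotide reductase and DNA damage, 6 were lower by 1.5-fold or more and 0 higher. RNR4, a small subunit of the reductase, had 280 FPKM in ino80d, 304 in arp8d, 354 in arp5d, 372 in ies6d and 834 in WT, and HUG1, an inhibitor of the enzyme, had 76.2 FPKM in ino80d and 983 FPKM in WT. Of 11 histone genes 2 were lower, HTA1 and HTB1, and 0 higher.

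Chromosome I stood apart as a whole. Its 81 long ORFs had a median log2 ratio of 0.69 (1.61-fold), 76 of 81 were above 0, and 19 (23.5%) were higher by 2-fold or more against 0 lower. The medians of the other 15 chromosomes lay between -0.07 and 0.12. In the other mutants the chromosome I median against WT was 0.11 in arp8d, 0.13 in arp5d and 0.07 in ies6d. Directly against those mutants, without the WT value, chromosome I genes in ino80d had medians of 0.54 (arp8d), 0.55 (arp5d) and 0.55 (ies6d), with 78, 81 and 76 of 81 genes above 0. In 4 stretches of the chromosome, up to 50 kb, 50 to 100 kb, 100 to 150 kb and beyond 150 kb, the medians against arp5d were 0.55, 0.56, 0.57 and 0.49, and those against WT were 0.97, 0.70, 0.61 and 0.49. The excess over the other mutants was thus of like size along the whole chromosome. More copies of the chromosome and more RNA per copy cannot be told apart in these data, which hold no DNA measurement.

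Single genes are given as examples and are no further support. SWC3 and SWD1 below are among the 10 long ORFs farthest above the other mutants. FUN30, a remodeller gene on chromosome I, had 52.5 FPKM in ino80d, 32.8 in arp8d, 34.0 in arp5d, 34.1 in ies6d and 36.4 in WT. SWC3, a subunit gene of the SWR1 remodelling complex, had 31.8 FPKM in ino80d, 18.6 in arp8d, 19.4 in arp5d, 18.9 in ies6d and 20.6 in WT. SWD1, a subunit gene of the histone H3 methyltransferase complex, had 74.2 FPKM in ino80d, 44.7 in arp8d, 46.2 in arp5d, 45.7 in ies6d and 58.0 in WT. ino80d was the highest of the 5 strains for each. For SWC3 and SWD1 its place above the other mutants follows from how they were chosen. ADE1, of purine synthesis, had 628 FPKM in ino80d, 407 in arp8d, 553 in arp5d, 455 in ies6d and 1181 in WT, so it was the highest of the mutants while below WT. Of the 25 kept YAL and YAR rows at least 2-fold higher, GCV3 was the long ORF with the highest log2 ratio, and it was as high in ies6d as in ino80d. Leaving out chromosome I moved the one-carbon median to -0.76, past 1.5-fold.

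**Figure D4:**
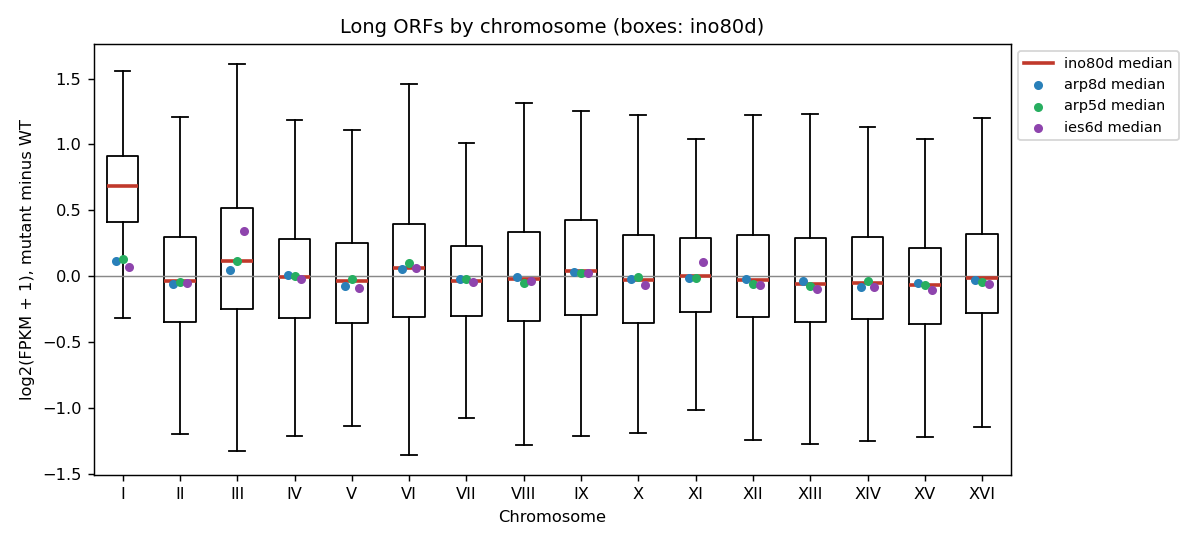
Log2 ratio to WT (y axis) of long ORFs by chromosome (x axis). Boxes show quartiles for ino80d with the median in red and whiskers to 1.5 times the interquartile range, and dots show medians of arp8d, arp5d and ies6d. Chromosome I lies at 0.69 in ino80d and at 0.07 to 0.13 in the other mutants.

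Genes next to chromosome ends included many low ones. Of 42 long ORFs within 10 kb of an end, 13 (31.0%) were lower by 2-fold or more in ino80d and 3 higher. Between 10 and 20 kb, 15 of 90 (16.7%) were higher and 7 lower, and beyond 50 kb 4.95% of 4853 were higher and 3.67% lower. Within 10 kb the counts of lower genes against WT were 4 in arp8d, 4 in arp5d and 5 in ies6d, where 2.08%, 3.12% and 2.97% of all long ORFs were lower. Directly against those mutants, ino80d was lower by 2-fold or more for 11, 7 and 8 of the 42 genes. From 10 to 20 kb, arp8d had 13 of 90 genes higher against WT, arp5d 20 and ies6d 17, where 4.22%, 4.94% and 5.80% of all long ORFs were higher.

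Of the 13 low genes at the ends, 5 belonged to the COS family, endosomal membrane proteins that help to sort other proteins to the vacuole. Of 8 kept members of 11, 6 were lower by 2-fold or more in ino80d and 0 higher (median log2 ratio -2.02, against -0.14 in arp8d, -0.57 in arp5d and -0.46 in ies6d). COS8 had 22.1 FPKM in ino80d, 53.6 in arp8d, 53.9 in arp5d, 55.3 in ies6d and 83.2 in WT. COS1 had 3.74 FPKM in ino80d, 26.2 in arp8d, 16.3 in arp5d, 21.0 in ies6d and 23.9 in WT. COS10, without a near-identical copy, had 4.84 FPKM in ino80d, 22.7 in arp8d, 14.4 in arp5d, 10.8 in ies6d and 25.3 in WT, and its neighbour AIF1, a cell death factor gene, had 17.04 FPKM in ino80d, 49.7 in arp8d, 45.6 in arp5d, 40.2 in ies6d and 46.5 in WT. ino80d was the lowest strain for all 4. These 4 are among the 10 long ORFs farthest below the other mutants, so their place below those mutants follows from the choice. COS6 went the other way, with 207 FPKM in ino80d and 161 FPKM in WT, and 5 of the 8 kept members have near-identical copies whose shared reads are uncertain. Among the other 36 genes within 10 kb, 8 were lower by 2-fold or more, including PHO12 and IMD2 on chromosome VIII.

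**Figure D5:**
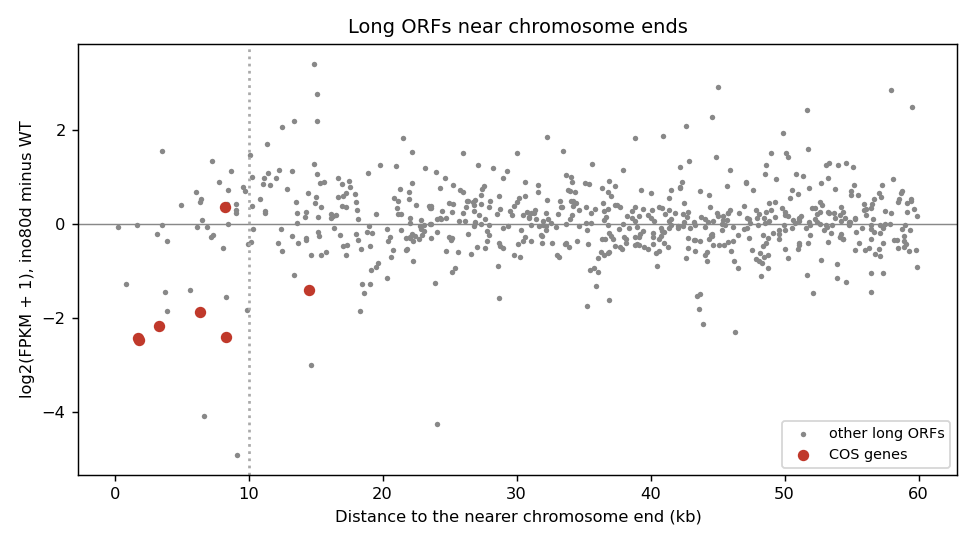
Log2 ratio of ino80d to WT (y axis) of long ORFs within 60 kb of a chromosome end, by distance to the nearer end (x axis, kb). Red points are COS genes, grey points other long ORFs and the dotted line marks 10 kb. Left of it 13 of 42 genes are at least 2-fold lower, 5 of them COS genes.

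Few other genes set ino80d apart from the mutants that lack a different subunit. Against arp8d 19 long ORFs were higher by 2-fold or more in ino80d (0.353%) and 37 lower (0.687%), against arp5d 8 higher (0.149%) and 8 lower (0.149%), and against ies6d 13 higher (0.242%) and 43 lower (0.799%). At least 2-fold above all 3 was 1 long ORF (0.0186%), YGL149W, which overlaps the deleted INO80 by a few bases. It had 79.9 FPKM in ino80d, 5.28 in arp8d, 7.75 in arp5d, 1.46 in ies6d and 15.9 in WT. At least 2-fold below all 3 were 7 (0.130%): INO80, COS1, COS5, COS7, COS8, COS10 and AIF1. ASC1, a ribosome-associated signalling protein gene that hosts a small nucleolar RNA in its intron, had 5509 FPKM in ino80d, 2834 in arp8d, 3260 in arp5d, 3319 in ies6d and 5820 in WT, so that ino80d and WT lay together above the rest. HXT1, a low-affinity glucose transporter, had 133 FPKM in ino80d, 569 in arp8d, 161 in arp5d, 230 in ies6d and 257 in WT. SPI1, a cell wall stress gene, had 235 FPKM in ino80d, 500 in arp8d, 421 in arp5d, 852 in ies6d and 46.4 in WT, lowest of the mutants but above WT.

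The log2 ratio moved with expression level. Long ORFs with a mean of 5 to 10 FPKM over the 5 strains had a median of 0.37, with 50 of 238 at least 2-fold higher and 7 lower. Those with a mean above 1000 FPKM had a median of -0.64, with 3 of 211 higher and 24 lower. This class includes many of the ribosomal protein genes already described as lower. Their lists hold 46 small-subunit and 72 large-subunit long ORFs, with list medians of 4467 FPKM and 3727 FPKM in ino80d. The class was not taken without them, so its median is not a separate result. In the classes between, the median was lower with each step up in level. The mean behind the filter and the classes includes the mutants. Genes low in WT and high in the mutants, such as SPO19, can therefore enter the lowest class, while genes of the opposite pattern can fall out. No excess of higher genes is read from that class. Of the 49 small nucleolar RNAs, 35 were higher by 1.5-fold or more in ino80d and 4 lower (median 0.83). These RNAs carry no stable poly(A) tail, and how much of them a poly(A) library retains was not tested.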

How the data were processed

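Each strain's value stands for replicates 1 and 2, which by the labels are biological replicates. The deposited values are FPKM per feature, made by the authors with TopHat2 and Cuffdiff on genome build sacCer3, per the submitters' processing notes. Versions, annotation and library size setting are not given in the sources used here. By the labels' protocols the libraries were poly(A) TruSeq v2 libraries, a kit that keeps no strand, so values of overlapping genes are uncertain.

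From these values the log2 ratio of FPKM + 1 was computed for features with a mean of at least 5 FPKM over 5 strains. Of 6567 identifiers, 5888 matched a locus tag and 67 a symbol of the RefSeq R64 annotation, the same assembly as sacCer3, and 612 matched none. Near-identical copies were found with blastn 2.17.0 (90% identity over 50% of the length). Motifs were searched in R64 on both strands, and overlapping matches were counted separately. Without replicates no test was run, and the counting of calls was checked on simulated data. Named genes were the 15 highest and 15 lowest long ORFs, up to 4 members of each of 60 lists with the largest ratios, the 10 farthest above and below the other mutants, and markers; other members named in the text were picked to describe their list after values were seen. The members, the gene lists and the thresholds were chosen with earlier results of these data known. The values of 1 list member are not reported here.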

Additional observations from a re-analysis of the deposited data

How the results depend on the processing

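No paired analysis was possible because each strain has 1 value, and for the same reason leaving out a replicate was not run. At 1.5-fold, 935 features were higher and 819 lower, and at 3-fold 169 were higher and 91 lower, as a change of threshold must give. Under the other alternatives (pseudocounts of 0.1 and 5 FPKM, no filter, filters of 20 FPKM or on ino80d and WT alone, centring, 2 scalings, without chromosome I rows, rows above 0 in all strains, long ORFs) and one chosen after seeing the data (without near-identical copies), the higher count lay between 287 and 494 and the lower count between 183 and 288. Over these, the 60 list medians gave 719 values, of which 7 dropped below 1.5-fold and 5 passed it, and the log2 ratios of 269 named genes gave 3118 values, of which 36 dropped below 2-fold and 7 passed it. None past its threshold changed sign. The chromosome I median was 0.58 with a pseudocount of 5 FPKM, under 1.5-fold. Depth is unknown, so low features carry an error that cannot be stated.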

Other observations

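Cell wall and nutrient transport genes outside the main groups held large differences. TIR1, a cell wall mannoprotein of cold and low oxygen, had 9.78 FPKM in ino80d, 30.5 in arp8d, 12.2 in arp5d, 10.8 in ies6d and 240 in WT, and 4 of 6 TIR and DAN genes were at least 1.5-fold lower. Of 17 iron uptake genes 6 were at least 1.5-fold lower and 1 higher, such as the transporter gene FET4 with 42.9 FPKM in ino80d and 155 FPKM in WT, whereas HMX1, heme oxygenase, had 216 FPKM in ino80d, 170 in arp8d, 203 in arp5d, 193 in ies6d and 12.8 in WT. PDR5, the main multidrug exporter, had 128 FPKM in ino80d, 294 in arp8d, 137 in arp5d, 121 in ies6d and 572 in WT, and PDR12, the weak-acid exporter, had 33.6 FPKM in ino80d and 18.1 FPKM in WT. Of 23 ergosterol genes 8 were at least 1.5-fold lower and 0 higher, led by the squalene epoxidase gene ERG1 with 195 FPKM in ino80d and 544 FPKM in WT.

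Genes of mating and meiosis went in both directions. The meiosis genes SPO19, with 11.4 FPKM in ino80d and 0.453 FPKM in WT, and REC8, the meiotic cohesin, with 6.52 FPKM in ino80d and 1.28 FPKM in WT, passed the 5 FPKM filter only through the mutants, so no count of higher genes is read from their list. The 6 meiosis regulators had 0 higher and 1 lower by 1.5-fold or more (median log2 ratio -0.31). The lower share was 16.7%, near the 13.2% of all kept features. Of 19 pheromone signalling and fusion genes, 2 were higher (10.5%, against 15.1% of all kept features) and 1 lower. The α-cell pheromone gene MF(ALPHA)1 had 34.5 FPKM in ino80d, 19.8 in arp8d, 41.5 in arp5d, 37.8 in ies6d and 1.69 in WT in these MATa strains, and FUS3, the pheromone pathway kinase, had 34.0 FPKM in ino80d, 56.9 in arp8d, 25.3 in arp5d, 31.5 in ies6d and 133 in WT.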
